A study of Mus musculus with 44 samples.

Results

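The 10 genes described here are widely used as markers of injured kidney tubules, and were followed through a time series of mouse kidney RNA. They were chosen by name, as Havcr1, Lcn2, Spp1, Clu, C3, Vcam1, Timp1, Krt8, Krt18 and Cp. All 10 were found among the 24733 genes with any value above 0, and 8 of the 10 averaged 1 TPM or more (the deposited unit of RNA level, scaled for transcript length and for the total of the library) and were tested. Havcr1 and Timp1 lay under that level and were not.

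The kidneys came from 129SV mice on night-restricted feeding, 8 to 12 weeks after birth, either wild type (WT) or lacking Bmal1, whose gene is Arntl (KO). Polyadenylated RNA was sequenced at 6 zeitgeber times (ZT, hours after lights on), ZT0, ZT4, ZT8, ZT12, ZT16 and ZT20, with 2 libraries, A and B, per genotype and time. That gave 12 WT and 12 KO libraries, all on the same strain and feeding. How the knockout allele was made, the sex of the mice, and whether A and B were separate animals are not given in the labels, so the p-values below measure the spread between these libraries.

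Injured tubule cells lose parts of their transport programme and switch on secreted and surface proteins that are otherwise scarce in them. Havcr1 (kidney injury molecule 1) is a receptor by which proximal tubule cells take up dying neighbours, and Lcn2 (neutrophil gelatinase-associated lipocalin) is a secreted carrier of iron-binding siderophores. Spp1 (osteopontin), Clu (clusterin, a secreted chaperone), C3 (the central complement component), Timp1 (an inhibitor of matrix metalloproteinases) and Cp (ceruloplasmin, a copper-carrying ferroxidase) are also secreted. Vcam1 is a surface protein that binds leukocyte integrins, and Krt8 and Krt18 are the paired keratins of simple epithelia. Bmal1 is a core transcription factor of the circadian clock.

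Some libraries stood apart and touch the results below. Arntl RNA lay at 4.19 to 6.28 TPM in KO and at 0.295 to 12.9 TPM over the WT day, so its level at ZT4 does not separate the genotypes. The library labelled KO ZT4 A had Cry1, a clock repressor, at 1.03 TPM against 11.5 to 17.8 TPM in the other KO libraries and 0.845 and 1.2 TPM in WT at ZT4, and Nr1d1, another clock repressor, at 23.8 TPM against 22 and 33 TPM in WT at ZT4. It thus went against its label for both genes. On the axis of largest variation over all genes tested (principal component 1) it lay at -8.31. The WT libraries lay at -44.8 to -9.42 and the other KO libraries at 18.4 to 51. The library labelled KO ZT8 A had 115 TPM summed over 6 urothelium markers, against 9.13 to 28.8 TPM in the other KO libraries and 6.03 to 13.1 TPM in WT. The library labelled KO ZT12 A had 3.31 TPM summed over Y-linked genes, against 48 to 69.1 TPM in the other 23. Markers of the kidney were present throughout (Slc34a1, the proximal tubule phosphate carrier, at 1474 ± 79.7 TPM in WT and 1551 ± 146 TPM in KO, SD, n = 12 each), and 5 adrenal cortex markers summed to at most 1.45 TPM.

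The 10 markers did not move as a block. In KO kidneys 5 of the 8 tested genes were higher (Cp, Clu, Krt18, Spp1 and Krt8), 1 was lower (Vcam1), and Lcn2 and C3 did not pass the test. The threshold was an adjusted p under 0.05 in limma, a linear model fitted over all 12874 genes with time of day as a factor. The share of all genes tested that passed was 60.9%, with 50.9% higher in KO and 10.0% lower, so a count of 6 of 8 lies near the background. The median log2 change of the 8 tested markers was 0.68, against 0.15 for all genes. Under scaling by the median of ratios, which brought the median of all genes to 0.00172 and the split of calls from 83.6% higher to 49.9% higher, 4 markers were higher and 1 lower, with Krt8 losing its call. With all libraries scaled to nuclear genes (73.2% of calls higher) the count was again 5 higher and 1 lower. It was 6 and 1 without the library labelled KO ZT4 A, Lcn2 being added, and 5 and 1 without all 3 libraries that stood apart.

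The markers also differed widely in level. Spp1 was the most abundant, with a mean over all 24 libraries of 607 TPM, followed by Clu at 163 TPM, Krt8 at 47.1 TPM, Cp at 33.7 TPM and Krt18 at 13.7 TPM. C3 at 5.05 TPM, Lcn2 at 3.25 TPM and Vcam1 at 2.77 TPM lay close together, and Havcr1 (0.758 TPM) and Timp1 (0.400 TPM) were near the bottom. In WT the values of Cp (10.9 to 29.4 TPM) and Krt18 (6.40 to 13.1 TPM) overlapped, as did those of C3, Lcn2 and Vcam1.

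**Figure D1:**
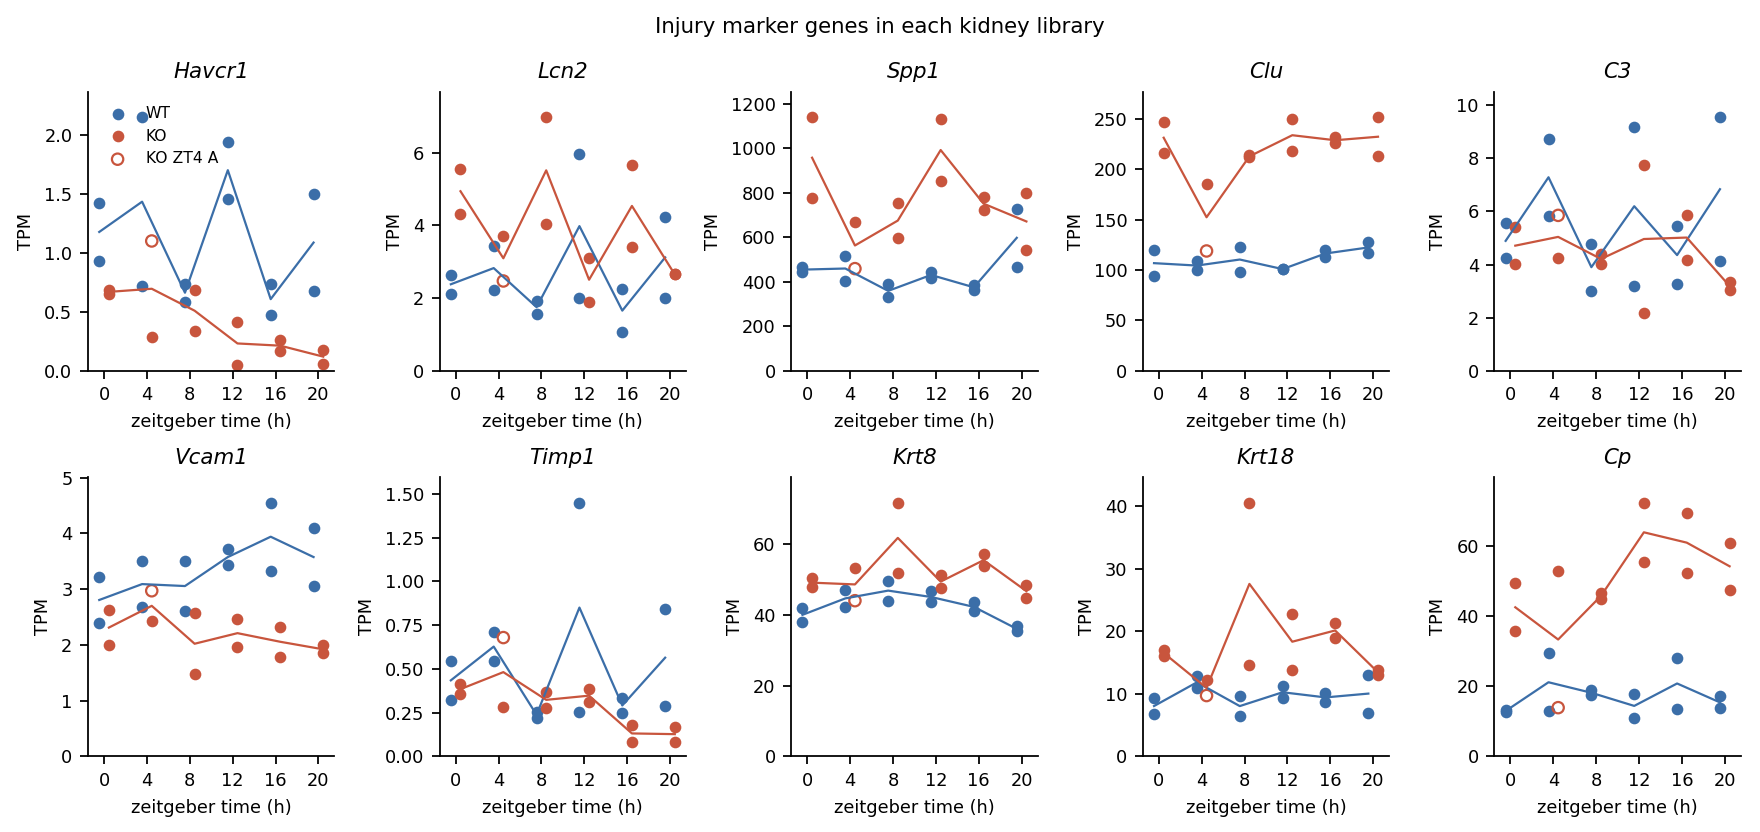
Level in TPM (vertical axis, from 0) of each of the 10 genes against zeitgeber time in hours, 1 point per library, with lines through the means of 2 libraries; WT is blue and KO red, drawn slightly apart. The open circle is the library labelled KO ZT4 A, which lies beside the WT points for Spp1, Clu and Cp, while the other 11 KO libraries of Clu and of Cp lie above all WT libraries.

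Cp had the largest change of the 8 tested genes. The ferroxidase lets iron leave cells by oxidising it for loading onto transferrin. The 12 WT libraries ranged from 10.9 TPM through a median of 15.4 TPM to 29.4 TPM, and the 12 KO libraries from 13.9 TPM through 50.9 TPM to 72.4 TPM. The low KO value is the library labelled KO ZT4 A, and the other 11 KO libraries were above every WT library. By time, the KO pairs A and B were 35.7 and 49.4 TPM at ZT0, 13.9 and 52.8 at ZT4, 46.7 and 44.9 at ZT8, 55.5 and 72.4 at ZT12, 52.4 and 69.6 at ZT16, and 47.5 and 61 TPM at ZT20. The WT pairs were 13.3 and 12.6 TPM at ZT0, 12.9 and 29.4 at ZT4, 18.9 and 17.4 at ZT8, 10.9 and 17.9 at ZT12, 13.6 and 28 at ZT16, and 13.7 and 17.1 TPM at ZT20. Both KO libraries were above both WT libraries at 5 of 6 times, all but ZT4. The log2 change was 1.52 (SE 0.22, adjusted p = 1.9e-05, limma), a 2.86-fold rise, and 1.69 without the library labelled KO ZT4 A.

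The Cp gene lies on chromosome 3 (GRCm38, chr3:19957054-20009145, plus strand) and was deposited as 16 transcripts. The largest was Cp-213, with 28.4% ± 3.85 of the gene's TPM in WT and 28.2% ± 4.07 in KO (SD, n = 12 each). Cp-202 held 19.3% ± 1.97 in WT and 25.4% ± 4.19 in KO, and Cp-201 held 19.1% ± 4.81 in WT and 10.0% ± 3.66 in KO; these shares were not tested. Cp-201 itself stood at 3.09 ± 0.646 TPM in WT and 4.56 ± 0.756 TPM in KO. Hps3 overlaps Cp on the opposite strand at a mean of 14.2 TPM, and without stated strand handling reads of the shared stretch cannot be told apart.

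The 2 RefSeq starts of Cp lie close together, and their windows show different motif letters. The windows are given because Cp changed most, from 250 bases before to 50 after the start (RefSeq, GRCm38.p6, plus strand, chr3:19956804-19957103 and chr3:19956999-19957298). Capitals mark an AP-1 match (TGANTCA) in the first and overlapping TATA box matches (TATAAA, both strands) in the second.
Cp start 1: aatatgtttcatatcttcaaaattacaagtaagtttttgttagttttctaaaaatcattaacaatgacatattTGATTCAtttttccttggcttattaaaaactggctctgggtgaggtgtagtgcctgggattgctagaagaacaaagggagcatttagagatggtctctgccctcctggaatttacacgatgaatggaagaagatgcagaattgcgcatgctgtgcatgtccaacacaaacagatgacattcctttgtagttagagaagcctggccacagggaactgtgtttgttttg
Cp start 2: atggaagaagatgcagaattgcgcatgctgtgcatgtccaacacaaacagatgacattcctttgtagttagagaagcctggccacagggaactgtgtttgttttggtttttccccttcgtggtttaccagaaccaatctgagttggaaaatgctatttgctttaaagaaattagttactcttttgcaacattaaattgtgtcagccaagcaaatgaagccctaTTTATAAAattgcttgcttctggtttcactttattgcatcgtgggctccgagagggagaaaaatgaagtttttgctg
The AP-1 letters begin 177 bases before the first start, and the TATA letters 27 bases before the second. Of 32851 promoter windows of this length, 7.81% hold the AP-1 letters and 13.6% the TATA letters.

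Clu, the secreted chaperone, was higher in KO at every time of day. In WT it ran from 93.8 TPM through a median of 111 TPM to 128 TPM, and in KO from 119 TPM through 217 TPM to 252 TPM. Only the library labelled KO ZT4 A (119 TPM) fell within the WT range, and the next lowest KO value was 186 TPM, at the same time. Both KO libraries lay above both WT libraries at all 6 times. The log2 change was 0.95 (SE 0.08, adjusted p = 2.3e-07, limma), or 1.93-fold, with 24 of 24 fits that left out 1 library keeping the call and giving 0.92 to 1.01. The gene (chr14:65968483-65981547, plus strand) was carried almost wholly by Clu-201, at 98.7% ± 0.559 of its TPM in WT and 98.2% ± 0.750 in KO.

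Spp1, a phosphorylated matrix protein that binds integrins and CD44, was the most abundant marker in both genotypes. WT libraries ran from 330 TPM through 430 TPM to 727 TPM and KO libraries from 459 TPM through 765 TPM to 1136 TPM. The groups overlapped: 7 of 12 KO libraries were above every WT library, and the highest WT value, in WT ZT20 B, lay above 5 KO libraries. Both KO libraries were above both WT libraries at 4 of 6 times, with overlap at ZT4 and ZT20. The log2 change was 0.77 (SE 0.13, adjusted p = 4.93e-05, limma). Spp1 lies at chr5:104435118-104441050 on the plus strand, and Spp1-201 held 96.6% ± 0.466 of its TPM in WT and 96.1% ± 0.357 in KO.

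Krt18 and Krt8, which pair into the same filaments, both rose, Krt18 by more. Krt18 was 6.40, 9.54 and 13.1 TPM (lowest, median and highest) in WT and 9.73, 15.4 and 40.6 TPM in KO. The KO values lay above every WT value in 9 of 12 libraries, and the highest, in the library labelled KO ZT8 A, was far above the next at 22.8 TPM, in the library labelled KO ZT12 A. The log2 change of Krt18 was 0.82 (SE 0.19, adjusted p = 0.00104, limma) and was 0.69 without KO ZT8 A. Krt8 was 35.3, 42.8 and 49.7 TPM in WT and 44.0, 50.9 and 71.7 TPM in KO, the highest again in KO ZT8 A. Its KO libraries exceeded every WT library in 7 of 12 cases, and both KO libraries exceeded both WT libraries at 5 of 6 times. The log2 change of Krt8 was 0.28 (SE 0.05, adjusted p = 0.000153, limma), 0.13 above the median of all genes, and it lost its call under scaling by the median of ratios (0.13, adjusted p = 0.0545, limma).

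Markers of the urothelium, the lining of the renal pelvis that is rich in both keratins, were also highest in the library labelled KO ZT8 A. The next highest marker sums, in the libraries labelled KO ZT12 A (28.8 TPM) and KO ZT0 A (20.7 TPM), came with Krt18 at 22.8 and 16.1 TPM and with Krt8 at 47.5 and 47.8 TPM, the latter below the KO median. All 5 tested urothelium markers were higher in KO, beside 50.9% of all genes tested. Their median log2 change was 0.97, and 0.68 without the 3 libraries that stood apart. Under scaling by the median of ratios 3 of the 5 passed, with a median of 0.83. Their 6-marker sum was 6.03 to 13.1 TPM in WT (median 10.5 TPM) and 9.13 to 115 TPM in KO (median 17.4 TPM), and none of the 6 was at 0 throughout. Upk1a, a uroplakin of the urothelial surface, was 2.75 ± 0.702 TPM in WT and 6.92 ± 7.43 TPM in KO (SD, n = 12 each). Without the 3 libraries Krt18 kept its call (log2 change 0.71, adjusted p = 0.000299, limma), at 15.7 ± 2.99 TPM over 9 KO libraries, 7 of them above all WT. Krt8 kept it too (0.29, adjusted p = 8.42e-06, limma). The part of the urothelium in either change was not tested.

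**Figure D2:**
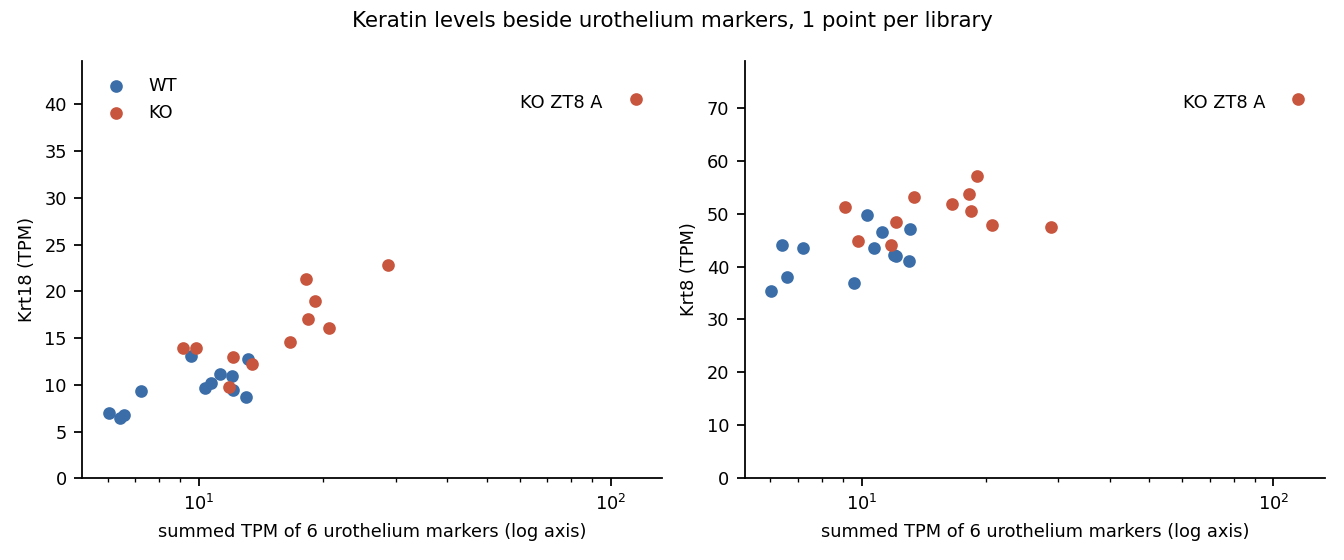
Krt18 (left) and Krt8 (right) in TPM against the summed TPM of 6 urothelium markers on a log axis, 1 point per library, WT in blue and KO in red. The library labelled KO ZT8 A stands alone at the upper right of both panels (115 TPM of markers, Krt18 at 40.6 TPM and Krt8 at 71.7 TPM).

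Krt8 and Krt18 lie close together on chromosome 15 (GRCm38), Krt8 at chr15:101996698-102004482 on the minus strand and Krt18 at chr15:102028180-102032027 on the plus strand, each deposited as a single transcript. Their promoter windows are set side by side because the 2 genes are partners and changed by different amounts (RefSeq, GRCm38.p6, chr15:102004293-102004592, minus strand, and chr15:102027966-102028265, plus strand). Capitals mark overlapping TATA box matches, and Krt18 has none of the motifs searched.
Krt8: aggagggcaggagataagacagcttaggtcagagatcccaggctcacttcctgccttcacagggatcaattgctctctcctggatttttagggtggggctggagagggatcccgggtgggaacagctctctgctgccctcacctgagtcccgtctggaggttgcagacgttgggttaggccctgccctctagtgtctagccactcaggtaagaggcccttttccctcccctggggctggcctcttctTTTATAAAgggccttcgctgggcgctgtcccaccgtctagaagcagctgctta
Krt18: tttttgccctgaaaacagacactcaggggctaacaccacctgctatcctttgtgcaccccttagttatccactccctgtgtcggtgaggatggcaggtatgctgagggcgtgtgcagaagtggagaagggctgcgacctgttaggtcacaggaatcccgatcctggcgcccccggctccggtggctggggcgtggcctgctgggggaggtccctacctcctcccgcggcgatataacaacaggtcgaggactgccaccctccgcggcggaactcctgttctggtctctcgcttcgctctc
Windows were found for 8 of the 10 genes, 12 windows in all, and not for Clu or Vcam1. The clock E-box (CACGTG) was in none of them and is in 7.15% of all promoter windows, and the D-box (TTATGTAA) was in none and is in 0.938%. AP-1 letters were found for 2 genes (Havcr1 and Cp), TATA letters for 4 (Spp1, C3, Krt8 and Cp), and the NF-kB motif, in 4.51% of all windows, for 0. Some genes have more than 1 window, so these counts of genes cannot be set directly against the shares of single windows. Matches anywhere in a window were counted, and those of Havcr1 and C3 lie after the start.

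Vcam1, the surface protein that holds leukocytes through integrin alpha 4 beta 1, went the other way. It was 2.40, 3.38 and 4.55 TPM (lowest, median and highest) in WT and 1.47, 2.16 and 2.97 TPM in KO. The groups overlapped, with 7 of 12 KO libraries below every WT library, and both KO libraries were below both WT libraries at 4 of 6 times. The log2 change was -0.58 (SE 0.11, adjusted p = 0.000205, limma), and -0.72 under scaling by the median of ratios. The gene lies at chr3:116109949-116129688 on the minus strand. Of 9 macrophage markers, 6 also fell in KO and 0 rose, with a median log2 change of -0.37. Of all genes tested 10.0% were lower and 50.9% higher. The sum of the macrophage markers was 180 to 368 TPM in WT (median 226 TPM) and 134 to 230 TPM in KO (median 188 TPM), and no marker was at 0 throughout. Most of the sum was Cd74, at 156 ± 33 TPM in WT and 120 ± 21 TPM in KO (SD, n = 12 each). Of 7 endothelium markers 3 rose and 0 fell (1 and 1 under scaling by the median of ratios), and their sum was 129 to 164 TPM in WT and 131 to 195 TPM in KO. Of 7 fibroblast and mural cell markers 1 rose and 0 fell (1 and 2 under scaling by the median of ratios), with a median of -0.04. Their sum was 74.9 to 121 TPM in WT and 76.4 to 159 TPM in KO. The part of any of these cells in the Vcam1 change was not tested. In whole kidney, fewer cells of a type and less RNA per cell cannot be told apart.

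Lcn2, the best known of the urinary markers, had a higher mean in KO but missed the threshold. WT libraries ran from 1.07 TPM through 2.18 TPM to 5.97 TPM and KO libraries from 1.90 TPM through 3.57 TPM to 6.98 TPM. The ranges overlapped almost wholly, with 1 KO library above every WT library, and KO was higher on average at 4 of 6 times. The log2 change was 0.59 (SE 0.25, 95% interval 0.06 to 1.12, adjusted p = 0.0526, limma). Of the 24 fits that left out 1 library, 7 called it, with log2 changes over all 24 of 0.48 to 0.74 and adjusted p from 0.00769 to 0.101 (limma). It was called without WT ZT4 B, WT ZT12 B, WT ZT20 B, the library labelled KO ZT4 A, KO ZT12 B, KO ZT20 A or KO ZT20 B. Under scaling by the median of ratios the change was 0.44 (adjusted p = 0.164, limma). The highest KO value was in the library labelled KO ZT8 A. Lcn2 lies at chr2:32384633-32388252 on the minus strand.

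C3, the component on which all complement pathways converge, gave no call. It was 3.02, 5.11 and 9.55 TPM (lowest, median and highest) in WT and 2.16, 4.19 and 7.76 TPM in KO. The ranges overlapped except for 1 KO library that fell below every WT library. The log2 change was -0.26 (SE 0.22, 95% interval -0.72 to 0.20, adjusted p = 0.32, limma), so a fall of up to that size and a small rise are both within the interval. The gene lies at chr17:57203970-57228136 on the minus strand.

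Havcr1 and Timp1 were scarce in both genotypes, and neither was higher on average in KO. Havcr1, the proximal tubule injury receptor, was 0.475, 0.836 and 2.15 TPM (lowest, median and highest) in WT and 0.0459, 0.314 and 1.1 TPM in KO. The KO mean was below the WT mean at all 6 times, 8 of 12 KO libraries were below every WT library, and the highest KO value was that of the library labelled KO ZT4 A. When low genes were let into the fit its log2 change was -1.39 (adjusted p = 0.0011, limma). Timp1 was 0.222, 0.328 and 1.45 TPM in WT and 0.0831, 0.297 and 0.679 TPM in KO, and in the same fit its change was -0.52 (adjusted p = 0.0946, limma). The depth behind such TPM values is unknown, and values under 1 TPM may rest on few reads. Havcr1 lies at chr11:46735080-46779578 and Timp1 at chrX:20870166-20874735, both on the plus strand, and Timp1 overlaps Syn1 on the other strand (a mean of 0.0512 TPM). With 12 libraries a side, no marker had all KO libraries above or all below all WT libraries. As 1.42% and 0.249% of all genes tested showed such a separation, a count of 0 lies near the background. For Clu and for Cp, 11 of 12 KO libraries were above every WT library, all but the library labelled KO ZT4 A.

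**Figure D3:**
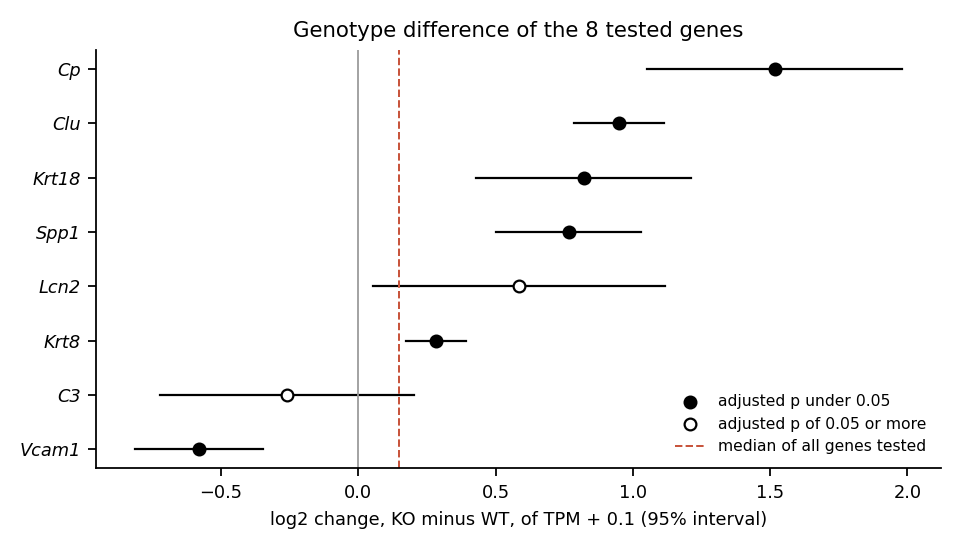
Log2 change, KO minus WT, of TPM + 0.1 for the 8 tested genes with 95% intervals from limma; filled points passed the adjusted p of 0.05, and the dashed line is the median of all genes tested (0.15). Cp (1.52) lies farthest right, Krt8 (0.28) has its interval just to the right of the dashed line, and Vcam1 (-0.58) is the sole filled point to the left of 0.

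The spread within WT was itself shared by several markers. WT ZT12 B, WT ZT20 B and WT ZT4 B held the 3 highest WT values of Havcr1, of Lcn2, of C3 and of Timp1. In WT ZT12 B these stood at 1.94, 5.97, 9.19 and 1.45 TPM. The same 3 libraries also held the 3 highest WT sums of neutrophil markers (3.34 to 6.23 TPM), and WT ZT12 B the highest sum of macrophage markers (368 TPM). None of the 3 was among the 3 highest WT libraries for Clu. In WT the B library exceeded the A library at 6 of 6 times for Lcn2 and Vcam1 and for the macrophage and lymphocyte sums, against 3, 2, 2 and 4 of 6 times in KO. The neutrophil and lymphocyte sums rest on scarce genes, with 3 of 5 and 6 of 7 markers under a mean of 1 TPM. Each WT B library also had more genes at 1 TPM or above than its A library, at 6 of 6 times, against 2 of 6 in KO. What the letters stand for is not given in the labels. With a letter term fitted within each genotype, an alternative chosen after seeing the data, Lcn2 passed (log2 change 0.59, adjusted p = 0.0339, limma) and the other 7 tested markers stayed on their side of the threshold.

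None of the 8 tested markers followed a 24-hour rhythm that passed the test. In WT 0 of 8 passed, against 13.7% of all genes tested, and in KO 0 of 8, against 3.64%. At an unadjusted p under 0.05 in limma, 1 marker of 8 passed in WT (Krt8) and 2 of 8 in KO (Clu and Cp). Of the 12874 genes tested 3756 passed in WT and 2711 in KO, so neither count of markers stands out from the background. The rhythm differed between genotypes for 0 of 8 markers, against 0.629% of all genes. At an unadjusted p under 0.05 in limma it was again 0 of 8, against 1758 of the 12874 genes tested. The median fitted peak-to-trough difference of the markers was 0.27 on the log2 scale in WT and 0.31 in KO, beside 0.248 and 0.215 for all genes. In WT, Krt8 peaked at 8.63 h with a peak-to-trough difference of 0.34 (SE 0.11, adjusted p = 0.11, limma), and it passed in WT libraries fitted alone (adjusted p = 0.0154, limma) and without the library labelled KO ZT8 A (adjusted p = 0.0239, limma).

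The fitted daily course of Cp and Clu in KO, which did not pass the test, shrank when a single library was left out. With all libraries the fitted peak-to-trough difference in KO was 1.07 (SE 0.40) for Cp, adjusted p = 0.233 in limma, and 0.46 (SE 0.16) for Clu, adjusted p = 0.188. Without the library labelled KO ZT4 A it was 0.54 (SE 0.33) for Cp, adjusted p = 0.565, and 0.20 (SE 0.12) for Clu, adjusted p = 0.521.

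A wider list of genes known from injured and repairing tubules, chosen with earlier results of these data known, was counted beside the markers. Of its 27 genes 20 were tested, and 14 were higher in KO and 2 lower, against 50.9% and 10.0% of all genes tested, with a median log2 change of 0.47 (12 and 2, and 0.32, under scaling by the median of ratios). Among those with the smallest p were Igfbp7, a secreted binder of insulin-like growth factors (870 ± 56.1 TPM in WT, 1382 ± 155 TPM in KO, log2 change 0.66), and Krt7, a keratin of ducts (40.5 ± 6.79 and 66.6 ± 11.9 TPM, 0.71). Their adjusted p in limma were 2.3e-07 and 6.73e-07. The lower genes were Hmox1, heme oxygenase (-0.75, adjusted p = 0.0256, limma), and Tnfrsf12a, the receptor of the cytokine TWEAK (-0.57, adjusted p = 2.28e-05, limma). The largest changes, singled out after their values were seen, were those of the fibrinogen chains. Fgg was 3.79 ± 1.70 TPM in WT and 35.8 ± 19.1 TPM in KO (log2 change 3.01, SE 0.38, adjusted p = 5.31e-06, limma), Fga changed by 1.90 and Fgb by 1.82. Sox9, Cd44, Krt20, Ccl2, Cxcl1 and Mmp7 were among the listed genes that stayed under a mean of 1 TPM and were not tested. Sox9 (0.16 TPM in WT, 0.093 TPM in KO), Cd44, Ccl2, Cxcl1 and Mmp7 had lower means in KO. Krt20 had a higher one (0.153 TPM in WT, 0.308 TPM in KO).

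**Figure D4:**
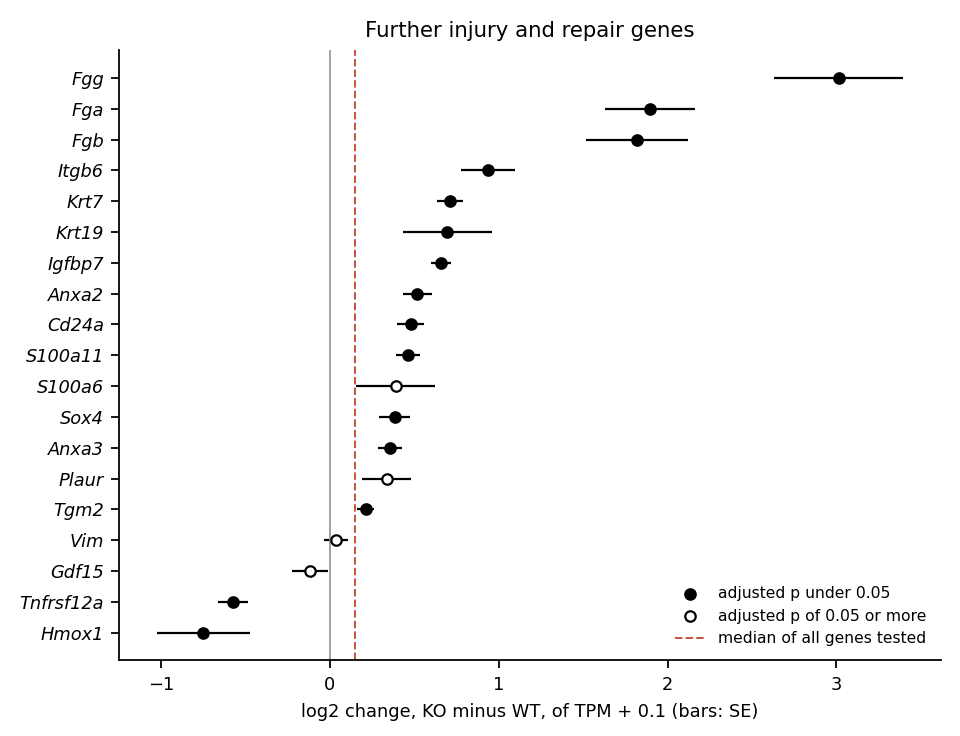
Log2 change, KO minus WT, of TPM + 0.1 with standard errors for the tested genes of the wider injury and repair list that are reported here; filled points passed the adjusted p of 0.05 and the dashed line is the median of all genes tested (0.15). The 3 fibrinogen chains lie farthest right (1.82 to 3.01), and Tnfrsf12a and Hmox1 are the filled points left of 0.

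Genes that act with the markers were counted in the same way. Of 21 receptors and binding partners 13 were tested and 8 were higher, 0 lower, with a median of 0.19. Of all genes tested 50.9% were higher and 10.0% lower, so the count of higher partners lies near the background. Under scaling by the median of ratios 5 partners were higher and 2 lower. Slc22a17, a receptor for Lcn2, was 11.3 ± 0.953 TPM in WT and 16.9 ± 2.15 TPM in KO (log2 change 0.57, adjusted p = 1.07e-06, limma). Cd63, a tetraspanin that binds Timp1, changed by 0.30 and Itgav, an integrin chain that binds Spp1, by 0.39.

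In the complement list more genes fell than rose. Of 18 genes 13 were tested, with 4 higher and 7 lower, beside 50.9% and 10.0% of all genes tested. The median was -0.36, and under scaling by the median of ratios 3 were higher and 7 lower. The 3 with the smallest p were Cd59a, which blocks the membrane attack complex (0.51), Cd55, which speeds the decay of the convertases (-1.19), and Cfb, which joins C3b in the alternative pathway convertase (-0.87). Cfb was 203 ± 22.2 TPM in WT and 113 ± 25.7 TPM in KO, and Cd55 was 7.0 ± 0.620 TPM in WT and 3.16 ± 1.30 TPM in KO.

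Regulators of inflammatory signalling stayed near the median of all genes. Of 26 genes 24 were tested, with 8 higher and 0 lower, beside 50.9% and 10.0% of all genes tested. Their median of 0.13 was close to that of all genes. Scaling by the median of ratios, which lowers the median of all genes by about as much, gave 1 higher and 4 lower. Il1r1, the interleukin 1 receptor, changed by 0.67 (adjusted p = 1.16e-05, limma), Nfkbia, the inhibitor of NF-kB, by 0.28 and Nfkbiz, an atypical inhibitor, by 0.28.

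Of 11 keratin and filament partners of Krt8 and Krt18, 7 were higher and 2 lower, with a median of 0.23. The shares of all genes tested were 50.9% and 10.0%, so these counts lie near the background. Under scaling by the median of ratios 4 were higher and 2 lower. Beside Krt7, Dsp, a plaque protein to which keratin filaments attach, rose (0.59, adjusted p = 5.55e-05, limma) and Krt10, a keratin of stratified epithelium, fell (-0.42, adjusted p = 7.98e-05, limma).

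Without the 3 libraries that stood apart the counts higher and lower were 13 and 2 for the injury and repair list, 8 and 0 for partners, 4 and 7 for complement, 10 and 0 for inflammatory regulators and 7 and 2 for keratin partners.

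Markers of several nephron segments moved alongside. All 6 intercalated cell markers and all 4 distal convoluted tubule markers were higher in KO, as were 6 of 7 of the collecting duct principal cell, with median log2 changes of 0.52, 0.54 and 0.61, beside 50.9% of all genes tested that were higher. Under either other scaling 6 of 6, 3 of 4 and 6 of 7 were higher, the distal gene that lost its call being Pvalb. Summed levels of the intercalated cell list were 57.8 to 81.5 TPM in WT and 77.3 to 127 TPM in KO. The rise was not confined to these lists. Higher in KO were 5 of 6 thick ascending limb markers (1 lower), 5 of 6 of the podocyte and 4 of 6 of the inner medulla. So were all 3 tested of the parietal epithelium. Their median log2 changes were 0.464, 0.405, 0.479 and 0.505. Of 8 proximal tubule markers 2 were higher and 4 lower, beside 10.0% of all genes tested that were lower. The sum of the proximal tubule markers was 34300 to 44900 TPM in WT and 13500 to 39600 TPM in KO. The highest KO value was that of the library labelled KO ZT4 A. The lowest was that of the library labelled KO ZT12 A, and the next lowest was 18200 TPM. Most of the sum was Kap, at 36500 ± 3070 TPM in WT and 21880 ± 7274 TPM in KO (SD, n = 12 each). Beside Kap, the lower markers were Slc7a13, Slc22a6 and Slc27a2, with log2 changes of -2.02, -0.92 and -0.39. Slc34a1 and Cubn, the endocytic receptor cubilin, did not pass the test, with log2 changes of 0.07 and 0.04. Slc5a2, the glucose carrier SGLT2, was higher by 0.45 and Slc5a12 by 0.42. Without the 3 libraries that stood apart 3 proximal tubule markers were higher and 4 lower, Slc34a1 being added, and Slc7a13 changed by -1.65. The counts higher in the other segment lists stayed, but for the thick ascending limb, with 4 of 6. No gene of these lists was at 0 throughout. The part of segment make-up in the changes of the 10 markers was not tested.

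As a description, the genes outside the 10 whose log2 levels followed each marker most closely over the 24 libraries, both genotypes together, were these. Cp was closest to Slc7a12, an amino acid carrier (r = 0.966), then Usp17lc (0.962), of a multigene family whose reads may be shared, and Hao2 (0.958), a hydroxy acid oxidase. Clu was closest to Trpv5, a distal calcium channel (0.970), Galnt18 (0.967) and Bhmt (0.964). Spp1 was closest to Aplp1 (0.946), Pkm (0.944) and Elovl6 (0.940). Cp, Clu and Spp1, like Krt18, Krt8 and Vcam1 below, differ between the genotypes, which the 24 points share. Krt18 was closest to Tspan6 (0.933), Upk1a (0.909) and Plet1 (0.907), with the library labelled KO ZT8 A among the points. Krt8 was closest to Hdac3 (0.904), Ano10 (0.898) and Ubxn1 (0.897), and Vcam1 to Tgfbi (0.954), Cygb (0.951) and Abi3bp (0.913). Lcn2 and C3 had looser neighbours, Pdcd5 (0.817), Hspb2 (0.784) and Fxyd5 (0.768) for Lcn2, and Otulinl (0.832), Tmem173 (0.768) and Tnfrsf11a (0.750) for C3.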

How the data were processed

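Polyadenylated kidney RNA of 24 libraries was analysed; the 20 4C-seq libraries of the series were not used. The authors deposited TPM per transcript, from kallisto 0.42.4 and builds mm10 and GRCm38 per the submitters' processing notes; the index was not given in the sources used here. Each deposited column sums to 999999 to 1000001, so depth is unknown and no counting interval was given. Of 88198 transcripts 86119 were matched to GENCODE M21 genes by Ensembl identifier without version and summed; the 2079 others held 1.35% to 2.24% of TPM. Mitochondrial genes took 40.5% ± 1.31 of TPM in WT and 37.6% ± 1.97 in KO (SD, n = 12 each). Groups came from the labels.

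Levels were tested as log2(TPM + 0.1) where they averaged 1 TPM or more, so fold changes understate those of low genes, with limma 3.58.1 (trend, robust) in R 4.3.3, two-sided or F tests, Benjamini-Hochberg adjusted over 12874 genes. The genotype model held time as a 6-level factor, and rhythm was a 24-hour cosine and sine per genotype. Each test was checked on simulated data with independent noise and 200 genes changed by a log2 size of 1. Recovery was 96.5% for genotype, 84% for WT rhythm and 86% for KO rhythm, with 3.5%, 4.55% and 6.52% of calls false. Of the WT and KO rhythms, 68.5% and 71.5% were called as rhythm differences. Smaller rhythms and shifts shared by libraries were not simulated. The named genes were the 10 markers, up to 3 genes per list that passed with the smallest p, up to 3 genes per marker with the highest Pearson r, and Arntl. Some genes counted in the injury and repair list are not reported here by name. The markers and lists were chosen with earlier results of these data known. Alternatives covered the pseudocount, the filter, 2 further scalings, the replicate letter, the variance model, the time term and each library left out.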

Additional observations from a re-analysis of the deposited data

Results flagged for a closer look

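Timp1 was the marker whose genotypes separated in opposite directions at different times. At ZT8 both KO libraries (0.278 and 0.368 TPM) were above both WT libraries (0.222 and 0.253 TPM), a mean log2 difference of 0.32. At ZT16 both KO libraries (0.179 and 0.0831 TPM) were below both WT libraries (0.248 and 0.334 TPM), a difference of -0.78, and at ZT20 (0.0848 and 0.169 against 0.285 and 0.843 TPM) the difference was -1.44. The difference between times was not tested, each time has 2 libraries per genotype, and all of these levels are under 1 TPM. With 2 libraries a side, separation at single times can readily arise by chance. The share of all genes that separate in this way was not counted.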

How the results depend on the processing

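The number of markers called between genotypes was 6, and 5 to 7 over 35 alternatives, the lowest with a filter at a mean of 5 TPM, which leaves Vcam1 and Lcn2 untested, and under scaling by the median of ratios, where Krt8 lost its call. Leaving out each library gave 6 to 7, the change being Lcn2. Spp1, Clu, Krt18 and Cp kept direction and call in all 35 and Vcam1 in the 34 that tested it; C3 was never called. Omitting the 3 libraries that stood apart was chosen after seeing the data. The count of markers rhythmic in WT moved from 0 to 1 (Krt8) with scaling to nuclear genes, in WT libraries alone and without the 3 libraries; leaving out 1 library gave 0 to 1, the 1 without KO ZT8 A. KO rhythm and rhythm difference stayed at 0 markers. Over all genes, WT rhythm calls were 1761 and became 2837 without the 3 libraries, 2843 in WT alone and 576 with time as a 6-level factor. KO rhythm calls were 468 and became 295 with no filter, 12 in KO alone, 28 with time as a factor, and 272 and 297 without KO ZT0 B or KO ZT8 B. Calls of a rhythm difference were 81, then 43 and 23 with no filter and with time as a factor, and 37 to 53 without any 1 of WT ZT4 A, WT ZT4 B, WT ZT12 B, WT ZT16 A, WT ZT16 B or KO ZT8 B. The replicate letter as a block left the genotype count of markers at 6 and each rhythm count at 0. Fitted within each genotype, a block chosen after seeing the data, it gave 7, with Lcn2 added, and 0 for each rhythm count. Of 15 pairs of WT groups, 14 had A minus B differences correlated above 0.1 (median r 0.201, lowest 0.0342), of 15 KO pairs 2 (median 0.0212) and of 36 pairs across genotypes 5 (median -0.00705). Same-letter libraries thus deviated together within WT, while most pairs of a WT and a KO group did not. The cause of these shifts was not tested. Unknown depth limits Havcr1 and Timp1 most.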
